A study of Mus musculus domesticus and Mus musculus molossinus with 8 samples.

Results

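The livers of MSM/Ms (MSM) mice, a wild-derived inbred strain from Japan, were compared with those of C57BL/6 (B6) mice, a classical laboratory strain. The 4 liver libraries among the 8 libraries of the series were used: a B6 and an MSM liver without treatment, and a B6 and an MSM liver after 1.5 µg of MegaFasL given into the peritoneum. MegaFasL is a multimeric form of Fas ligand, which binds the death receptor Fas. All mice were 8 weeks old, no mouse carried an engineered allele according to the labels, and each combination of strain and treatment was a single library. The untreated and the injected libraries lie in separately normalized tables, so MSM was set against B6 within each table, and the difference (MSM minus B6, log2(FPKM + 1)) was asked for in both. FPKM counts fragments relative to transcript length and to the mapped fragments of the library. Of 23284 genes in the tables, the 7054 that averaged 5 FPKM or more across these livers were tested.

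The mouse liver is strongly sexually dimorphic. The timing of growth hormone release differs between males and females, and the hormone acts through its receptor, the kinase JAK2 and the transcription factor STAT5 on hepatocytes. A large set of cytochrome P450, sulfotransferase, glucuronosyltransferase and major urinary protein genes is consequently expressed mainly in one sex, and the repressor BCL6 works at many of the same genes in males. Most of these genes belong to families of close relatives that lie side by side in the genome, and the families differ in copy number and sequence between wild-derived and classical strains.

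The labels used here give no sex, and sex-specific transcripts were therefore read out. Xist, the RNA that coats the inactive X chromosome, stood at 73.0 and 131 FPKM in the B6 livers and at 87.0 and 105 FPKM in the MSM livers. The Y-linked genes Ddx3y, Kdm5d, Eif2s3y and Uty were listed at 0 in all 4. All 13 hepatocyte markers were expressed, and none of them differed 2-fold in both tables. At the estimated depth, 5 FPKM for a 2 kb transcript corresponded to between 15.3 and 17.9 fragments, and between 10412 and 10850 genes reached 1 FPKM in a liver. Genes were picked that were high in B6 thymus, low in MSM thymus and low in every liver but the untreated B6 one. They were 8 histone genes. In the untreated B6 liver they stood at 2.12% to 4.69% of the untreated B6 thymus level (median 2.85%). The other 3 livers, low in part by the choice of genes, had medians of 0% to 0.119%. The highest value there was 2.68%, in the injected B6 liver. The source of these transcripts was not tested.

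Of the 7054 genes, 171 were at least 2-fold higher in MSM in both tables (2.42%) and 271 were at least 2-fold lower (3.84%). Rescaling each library to a common sum (TPM) moved the median difference of all genes by -0.17 and gave 121 higher and 336 lower, so that higher genes made up 26.5% in place of 38.7% of the total. Differences reached 4-fold in both tables for 49 higher and 98 lower genes. Another 41 genes were 2-fold apart in opposite directions in the 2 tables. The strain difference was tested with limma, with treatment as a block. It passed (Benjamini-Hochberg adjusted p under 0.05) for 193 genes (2.74%), of which 71 were higher (1.01%) and 122 lower (1.73%), and all 193 were also at least 2-fold apart in both tables. With strain alone in the fit, 45 genes were higher and 70 lower. With 1 liver left out the block leaves no residual degree of freedom, and fits of strain alone to the other 3 livers gave 5 to 23 higher and 19 to 33 lower genes. Each strain had 2 livers and the fit has 1 residual degree of freedom. These p-values, and the standard errors (SE) below, reflect how much that difference changed from the untreated to the injected pair, with limma's moderation, and not the spread among mice of 1 strain and treatment. The lower bounds of the confidence intervals that the authors deposited beside each FPKM value were above 0 for at most 2 genes per liver, so no pair of intervals was apart in both tables. Another 11 settings kept the 4 livers: another added value, minimum, scaling or form of the fit, or thymus transcripts taken out of the untreated B6 liver (below). Genes that averaged under 20 FPKM were not tested at that minimum. Of the 94 genes named in the text that passed, 29 also passed in each of these settings in which they were tested. Among them were Cyp2b9, Cyp4a12b, H2-K1, Mup3 and Socs2, while 65 genes missed the threshold in at least 1 setting.

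Across genes, the correlation between the differences in the 2 tables was 0.50 (Pearson) and 0.40 (Spearman), given as a description since genes are not independent. Of the genes 2-fold lower in MSM without treatment, 51.7% were also 2-fold lower in the injected mice, and of those 2-fold higher, 34.9% were also higher. The strain pattern was therefore partly shared between the tables, and the sections below keep to genes that it holds for in both.

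**Figure D1:**
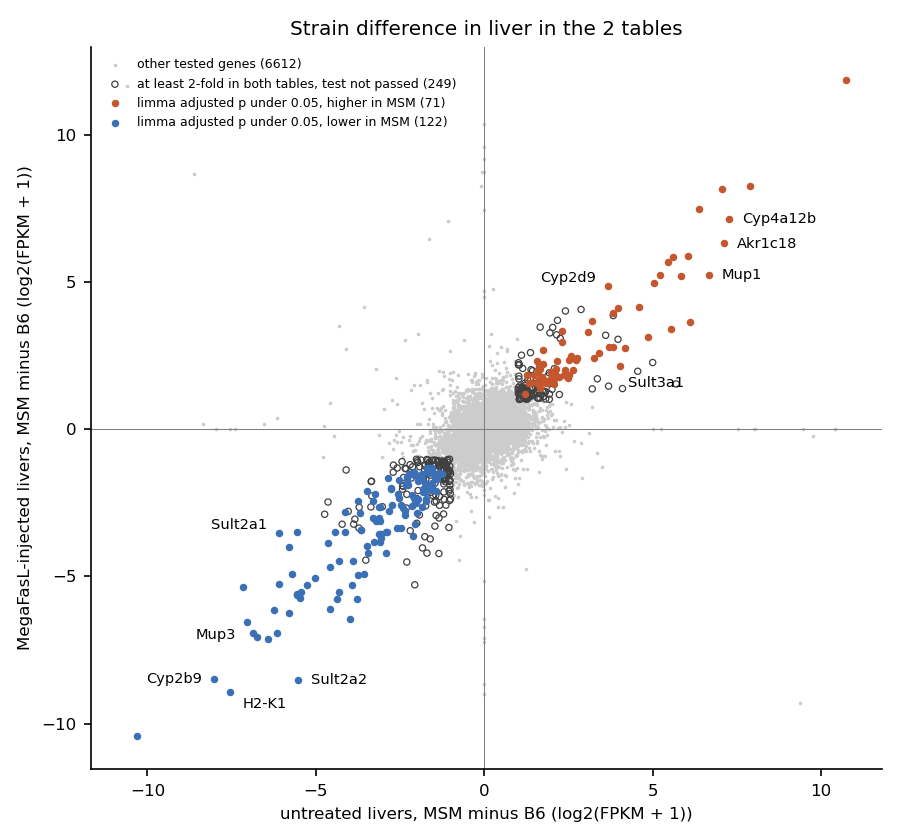
Strain difference (MSM minus B6, log2(FPKM + 1)) of 7054 genes in the untreated livers (x axis) and in the MegaFasL-injected livers (y axis). Filled points passed the limma test (71 higher and 122 lower in MSM), open circles were at least 2-fold apart in both tables without passing it, and grey points are the other genes. The genes that passed lie near the diagonal, which follows from the test, since it favours genes whose 2 differences are alike. Cyp2b9 and H2-K1 lie toward the lower left and Cyp4a12b and Akr1c18 toward the upper right.

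Genes known as male-biased in liver were mostly higher in MSM, although all 4 libraries held Xist. Of 17 members tested of 20 listed, 11 were at least 2-fold higher in both tables and 9 of them passed the test, while 2 were lower and passed. The median difference of the 17 was 2.33 (log2), against 0.04 for all genes tested. The fatty acid omega-hydroxylase gene Cyp4a12b (chromosome 4, 115411624 to 115439034, mm10) stood at 154 FPKM in the untreated and 143 FPKM in the injected MSM liver and was listed at 0 in both B6 livers. Its close relative Cyp4a12a stood at 23.4 and 16.9 FPKM in MSM and was also listed at 0 in B6. Both genes passed (limma adjusted p = 0.00103 for Cyp4a12b and 0.0275 for Cyp4a12a), and the strains did not overlap for either. With 2 livers per strain such an order is common by chance, and it is given here and below as a description alone. How many of all genes show it was not counted.

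Cyp4a12a and Cyp4a12b are 98.6% identical over their coding sequences in the B6 reference, with 1 stretch of 342 identical bases, so reads can be assigned to either. The 120-base stretch of the coding sequence (GENCODE M21, mm10) in which they differ most is shown here because it holds only 5 differences, printed in capitals, at bases 435 to 554 counted from the start codon.
Cyp4a12a: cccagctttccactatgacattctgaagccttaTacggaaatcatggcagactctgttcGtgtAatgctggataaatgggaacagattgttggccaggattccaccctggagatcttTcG
Cyp4a12b: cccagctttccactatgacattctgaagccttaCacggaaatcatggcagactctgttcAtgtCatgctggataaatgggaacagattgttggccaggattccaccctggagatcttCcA
Their sum does not depend on that assignment. In both B6 livers it was listed at 0, and it came to 178 FPKM in the untreated and 160 FPKM in the injected MSM liver.

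Further male-biased genes followed the same order of strains. Susd4, which encodes a membrane regulator of complement, stood at 47.3 and 57.3 FPKM in MSM and was listed at 0 in B6 (limma adjusted p = 0.00395). The glucuronosyltransferase gene Ugt2b38 stood at 43.0 and 51.2 FPKM in MSM, again against a listing at 0 (limma adjusted p = 0.00479). Cyp2d9, a steroid 16-alpha-hydroxylase gene, was at 27.3 and 20.3 FPKM in B6 and at 362 and 625 FPKM in MSM, higher by 4.28 ± 0.34 (log2, SE, n = 2 livers per strain, as for every difference here). C6, which encodes a component of the membrane attack complex, was at 8.76 and 4.84 FPKM in B6 and at 88.0 and 73.7 FPKM in MSM, higher by 3.43 ± 0.25. For each of these 4 genes both MSM livers lay above both B6 livers.

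Bcl6 itself was at 2.57 and 2.70 FPKM in B6 and at 21.4 and 14.0 FPKM in MSM, higher by 2.33 ± 0.33 (limma adjusted p = 0.0414, between 0.0235 and 0.0523 in the other settings, 3 of 10 of which missed the threshold). Cyp7b1, an oxysterol 7-alpha-hydroxylase gene, was 2-fold higher in both tables (12.1 and 20.7 FPKM in B6, 133 and 70.3 FPKM in MSM) but missed the threshold at a limma adjusted p of 0.0619. Selenbp2 was likewise 2-fold apart without passing. Hsd3b5, a male-biased steroid reductase gene, went from 1.30 to 12.7 FPKM without treatment and from 3.56 to 7.24 FPKM after injection, so it was 2-fold apart in the untreated table alone. Egfr was the member outside the Mup family whose difference pointed the other way, by -0.38 ± 0.21, and it did not pass. The exceptions that passed in the other direction were Mup11 and Mup21, described with their family below.

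Genes known as female-biased were mostly lower in MSM. Of 27 members tested of 31 listed, 14 were at least 2-fold lower in both tables and 9 of them passed, while 2 were higher and passed, with a median difference of -1.97. Cyp2b9, a P450 gene of this group (chromosome 7, 26173409 to 26210660), was at 435 and 359 FPKM in B6, against 0.690 FPKM and a listing at 0 in MSM (-8.25 ± 0.25, limma adjusted p = 0.000689). Its neighbour Cyp2b13 was at 108 and 152 FPKM in B6 and at 5.87 and 0.760 FPKM in MSM. The 2 coding sequences are 92.7% identical, and their sum of 543 and 511 FPKM in B6 stood against 6.56 and 0.760 FPKM in MSM, so the sum was lower in MSM as well.

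Steroid metabolism genes of the female-biased group showed the same order. The hydroxysteroid sulfotransferase gene Sult2a1 was at 210 and 424 FPKM in B6 and at 2.12 and 35.7 FPKM in MSM, and Sult2a2 at 293 and 364 FPKM in B6, against 5.36 FPKM and a listing at 0 in MSM. Cyp17a1, the steroid 17-alpha-hydroxylase gene, was at 76.5 and 194 FPKM in B6 and at 4.23 and 7.76 FPKM in MSM, a difference of -4.18 (log2, limma adjusted p = 0.0047). All 3 passed, and in each the MSM livers lay below both B6 livers. A1bg, which encodes a plasma glycoprotein, was at 226 and 202 FPKM in B6 and at 0.713 and 1.18 FPKM in MSM.

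The lipid genes in the female-biased list included Cyp4a14, a fatty acid omega-hydroxylase gene, at 473 and 216 FPKM in B6 and at 4.53 and 0.555 FPKM in MSM (-6.77 ± 0.27). Acot3, an acyl-CoA thioesterase gene, was at 54.2 and 75.5 FPKM in B6 and listed at 0 in both MSM livers. Abcd2, which encodes a peroxisomal fatty acid transporter, was at 30.2 and 28.3 FPKM in B6 and at 2.16 and 2.62 FPKM in MSM. Each of these 3 passed.

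The order was not uniform. Sult3a1 was at 105 and 219 FPKM in B6 and at 1724 and 971 FPKM in MSM (3.08 ± 0.46, limma adjusted p = 0.0457), and the peroxisomal hydroxyacid oxidase gene Hao2 was at 30.8 and 16.0 FPKM in B6 and at 177 and 55.6 FPKM in MSM. Both are female-biased genes that were higher in MSM. Gm4794, the neighbour of Sult3a1 that RefSeq names Sult3a2 and that was picked out after its values were seen, was higher as well, from 7.16 and 12.3 FPKM in B6 to 558 and 166 FPKM in MSM. The female-biased genes Fmo2, Trim24, Cyp2c40 and Cyp2a4 were less than 2-fold apart in at least 1 table, and Cyp3a16 was 2-fold higher in the untreated and 2-fold lower in the injected MSM liver (28.7 FPKM in B6 and 69.6 FPKM in MSM without treatment, 192 and 6.24 FPKM after injection).

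**Figure D2:**
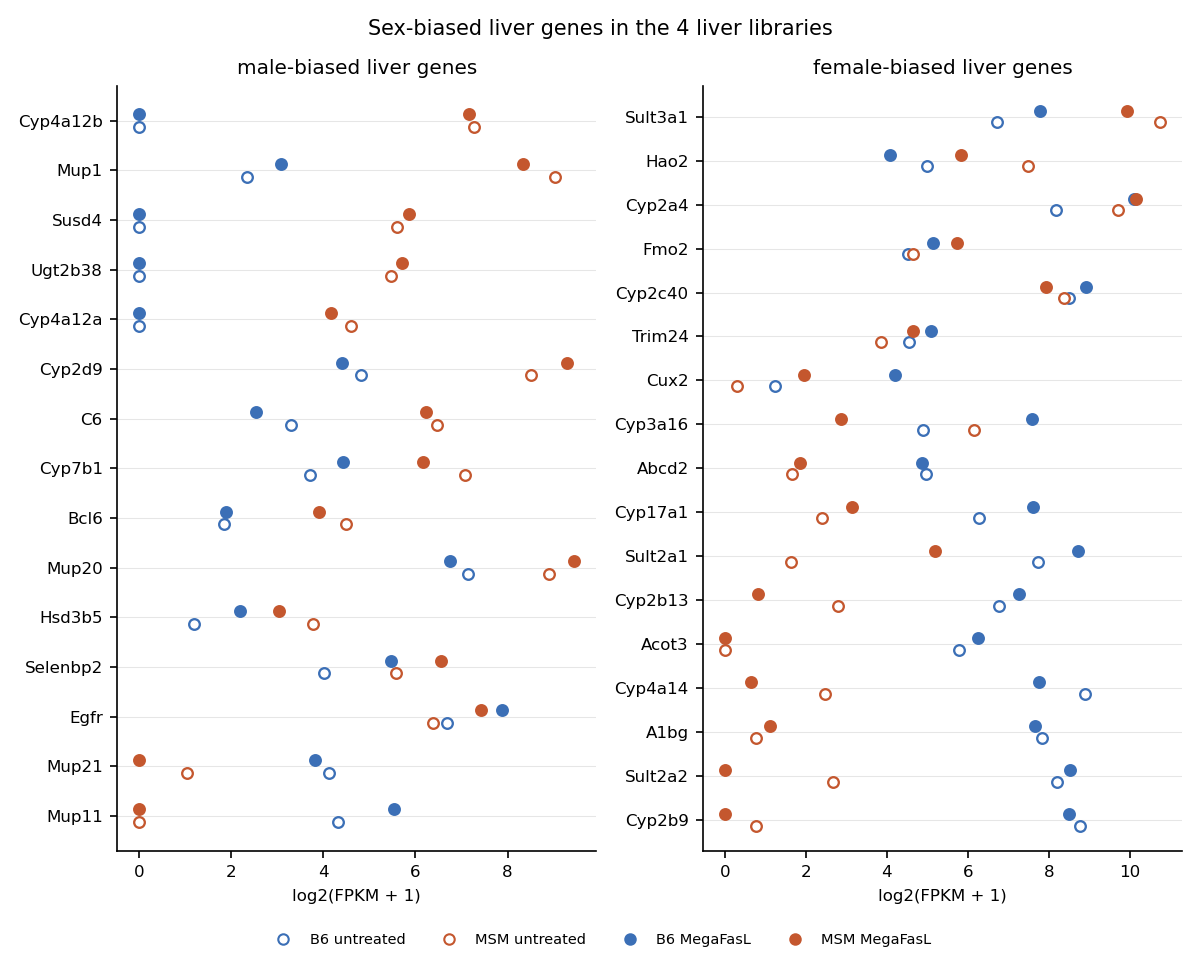
Level of the members named in the text of the male-biased list (left, 15 of 17 tested) and the female-biased list (right, 17 of 27 tested) in the 4 liver libraries, as log2(FPKM + 1). Blue points are B6 and orange points MSM, open without treatment and filled after MegaFasL; genes are ordered by the mean strain difference. Most male-biased genes drawn have both MSM points to the right of both B6 points, most female-biased genes drawn the reverse, and Mup11, Mup21, Sult3a1 and Hao2 go against their list.

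Among 17 tested members of the growth hormone and STAT5 axis, 1 was higher and passed (Bcl6), 3 were 2-fold lower and 1 of these passed. That gene was Socs2, a feedback inhibitor whose transcription STAT5 drives, at 55.5 and 67.9 FPKM in B6 and at 3.48 and 5.35 FPKM in MSM (-3.55 ± 0.23, limma adjusted p = 0.00509). Cish, a further STAT5-driven inhibitor, was 2-fold lower in both tables (7.46 and 14.2 FPKM in B6, 1.47 and 4.87 FPKM in MSM) at a limma adjusted p of 0.128. The third was Foxa2, a pioneer factor of liver genes, at 18.0 and 20.8 FPKM in B6 and at 8.40 and 4.29 FPKM in MSM (limma adjusted p = 0.11). Cux2, a female-specific transcription factor of liver, was at 1.36 and 17.4 FPKM in B6 and at 0.235 and 2.85 FPKM in MSM, which is under 2-fold on this scale without treatment, and did not pass. The receptor Ghr was at 224 and 252 FPKM in B6 and at 298 and 287 FPKM in MSM, and Igf1, the main hormone made under its control, at 187 and 229 against 194 and 164 FPKM. Neither Ghr nor Igf1 passed, and each was less than 2-fold apart in both tables.

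The major urinary protein (Mup) genes encode small pheromone carriers secreted by the liver. Of 8 members tested, 5 were lower and 2 higher in MSM, and all 7 passed. Mup3 (chromosome 4, 62083476 to 62087312) was at 3781 and 2517 FPKM in B6 and at 31.1 and 19.8 FPKM in MSM (-6.90 ± 0.19, limma adjusted p = 0.000689). Mup19 was at 46.1 and 47.8 FPKM in B6 and listed at 0 in both MSM livers, and Mup2, Mup11 and Mup21 were also lower. In the other direction, Mup1 was at 4.10 and 7.49 FPKM in B6 and at 519 and 321 FPKM in MSM (5.96 ± 0.38), and Mup20, which encodes the male pheromone darcin, at 141 and 107 FPKM in B6 and at 478 and 698 FPKM in MSM.

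The direction of the family as a whole depended on a gene model outside its names. Gm2083, picked out after its values were seen, shares the locus of Mup11 in the tables (chromosome 4, 60578261 to 60662395) and is given as Mup13 in RefSeq. It was at 137 and 304 FPKM in B6 and at 6512 and 3236 FPKM in MSM. The 20 genes with a Mup symbol summed to 4144 and 2892 FPKM in B6 and to 1111 and 1072 FPKM in MSM, lower in MSM in both tables. With Gm2083 the sums were 4281 and 3196 FPKM in B6 and 7623 and 4309 FPKM in MSM, higher in MSM in both. The labels do not say how reads of the near-identical Mup genes were shared out among them, so the level of a single member is uncertain.

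**Figure D3:**
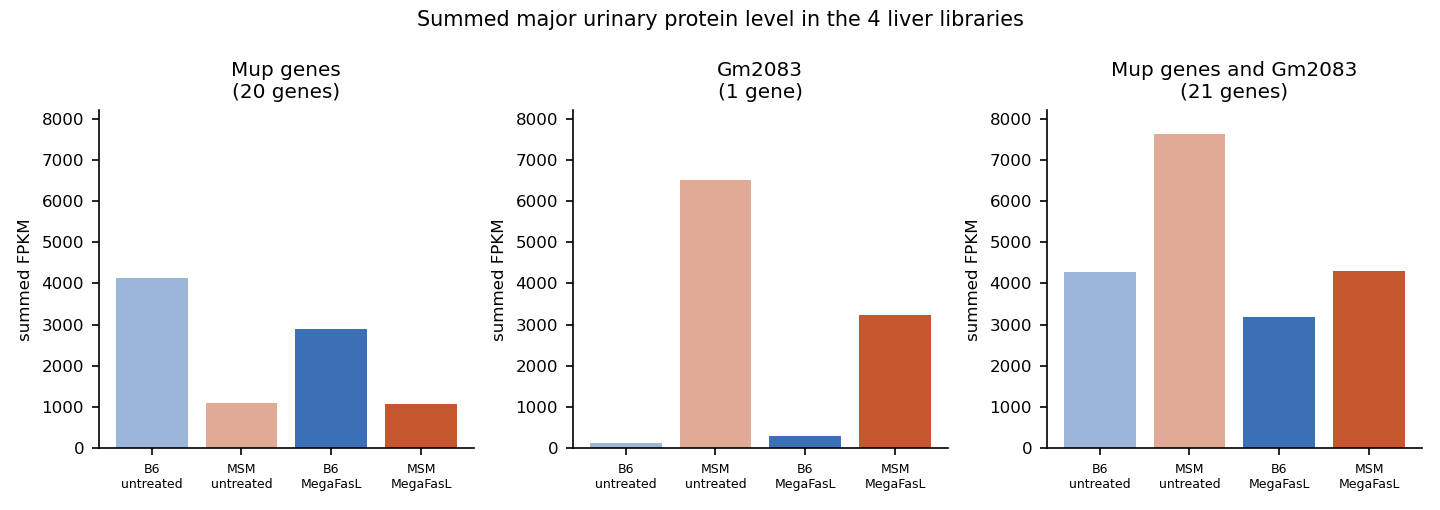
Summed FPKM (y axis, from 0) in the 4 liver libraries for the 20 genes with a Mup symbol, for Gm2083, and for both together. Pale bars are untreated and full bars MegaFasL-injected livers, B6 in blue and MSM in orange, 1 library per bar. The Mup sum is lower in MSM, 4144 against 1111 FPKM without treatment, and the sum that includes Gm2083 is higher, 4281 against 7623 FPKM.

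Cytochrome P450 genes of family 2, which oxidize drugs, steroids and fatty acids, differed in both directions. Of 30 members tested, 3 were higher and 11 lower by at least 2-fold in both tables, and 3 and 9 of these passed, with a median difference of -0.73. Besides Cyp2b9, Cyp2b13 and Cyp2d9, Cyp2d26 was at 492 and 564 FPKM in B6 and at 22.8 and 9.26 FPKM in MSM. Cyp2e1, the ethanol-inducible member and the most abundant of the family, was at 3516 and 4762 FPKM in B6 and at 3553 and 6328 FPKM in MSM, and did not pass.

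The Cyp2c genes on chromosome 19 held neighbours of opposite direction. Cyp2c38 was at 71.7 and 52.7 FPKM in B6, against 0.650 FPKM and a listing at 0 in MSM, while Cyp2c39, a retinoic acid hydroxylase gene next to it, was at 5.89 and 13.1 FPKM in B6 and at 396 and 517 FPKM in MSM (limma adjusted p = 0.00264 and 0.00185). Their coding sequences are 94.2% identical. The 120-base stretch in which they differ most, bases 286 to 405 of the coding sequence, holds 20 differences (capitals) and is shown because reads over it can be told apart in the B6 reference.
Cyp2c38: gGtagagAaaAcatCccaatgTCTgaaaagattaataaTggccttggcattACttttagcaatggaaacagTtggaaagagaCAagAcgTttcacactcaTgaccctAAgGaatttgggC
Cyp2c39: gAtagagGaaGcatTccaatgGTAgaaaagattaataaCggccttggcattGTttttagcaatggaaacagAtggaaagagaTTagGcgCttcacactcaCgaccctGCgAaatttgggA
The pair summed to 77.5 and 65.8 FPKM in B6 and to 397 and 517 FPKM in MSM, so the sum was higher in MSM. Farther along the cluster, Cyp2c37, Cyp2c50 and Cyp2c68 were lower and passed, and Cyp2c54 was higher and passed (211 and 241 FPKM in B6, 662 and 645 FPKM in MSM).

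In family 3, 1 of 8 tested members was 2-fold higher, 3 were 2-fold lower, and only the lower Cyp3a13 passed. Cyp3a11, the main drug-metabolizing P450 of this family in mouse liver, was at 2317 and 654 FPKM in B6 and at 7332 and 7272 FPKM in MSM, 2-fold higher in both tables at a limma adjusted p of 0.0633. In family 4, which hydroxylates fatty acids at the terminal carbon, 4 of 11 were 2-fold higher, 3 of them past the test, and 1 was lower and passed. The genes that passed were Cyp4a12a, Cyp4a12b and Cyp4a32 (7.82 and 14.6 FPKM in B6, 160 and 104 FPKM in MSM) on the higher side and Cyp4a14 on the lower side. These 4 lie in 1 cluster on chromosome 4, and the neighbouring Cyp4a10 was less than 2-fold apart in each table.

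Conjugating enzymes and hydrolases showed members in both directions. Of 16 glucuronosyltransferase genes, 3 were 2-fold higher and 4 lower, and 1 and 2 of these passed. Ugt3a2 was at 293 and 286 FPKM in B6 and at 18.5 and 6.38 FPKM in MSM, and Ugt1a5 at 90.2 and 86.8 against 26.8 and 15.3 FPKM. Of 19 glutathione S-transferase genes, 5 were higher and 4 lower, and 3 and 4 of these passed. In the Gstm cluster, Gstm7 was higher (41.4 and 29.7 FPKM in B6, 124 and 153 FPKM in MSM), and its neighbours Gstm2, Gstm3 and Gstm6 were lower. Of 12 carboxylesterase genes, 3 were lower and 2 of these passed, among them Ces2a at 129 and 111 FPKM in B6 and at 22.6 and 9.94 FPKM in MSM.

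Enzymes of steroid reduction were also apart in both directions. Akr1c18, which encodes a 20-alpha-hydroxysteroid dehydrogenase that inactivates progesterone, was listed at 0 in the untreated and at 0.573 FPKM in the injected B6 liver, and stood at 138 and 125 FPKM in MSM (6.72 ± 0.30, limma adjusted p = 0.00175). Its relative Akr1c12 was lower, from 59.2 and 52.9 FPKM in B6 to 3.37 FPKM and a listing at 0 in MSM. These 2 coding sequences are 75.0% identical, with no shared stretch longer than 19 bases. Hsd3b3 was at 82.8 and 73.2 FPKM in B6 and at 0.767 and 0.494 FPKM in MSM, and the retinol dehydrogenase gene Rdh16 at 52.4 and 54.3 FPKM against 0.384 and 0.423 FPKM.

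**Figure D4:**
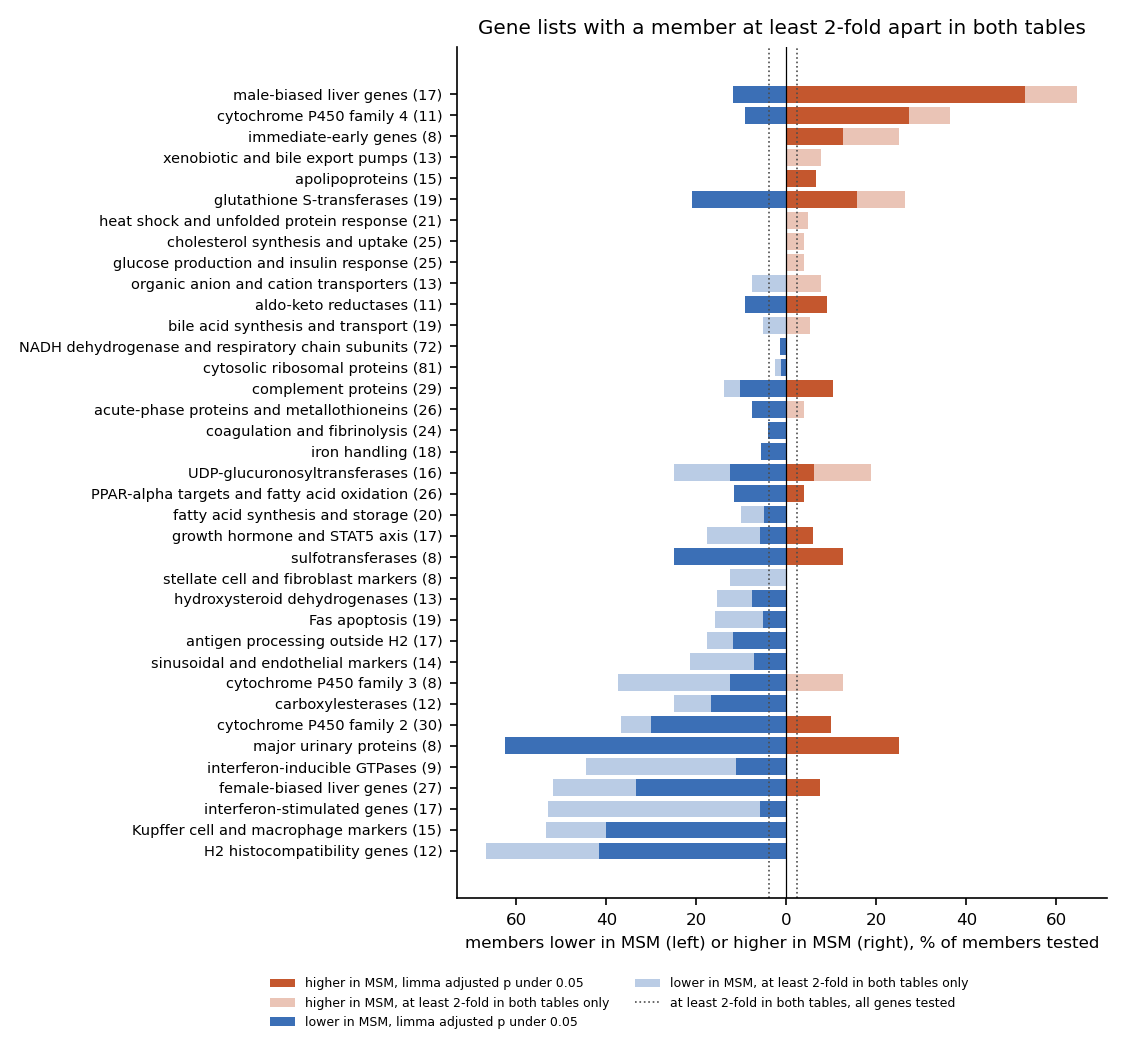
Share of tested members (number in brackets) of each gene list that was lower (left, blue) or higher (right, orange) in MSM, for lists of at least 8 tested members with 1 or more at least 2-fold apart in both tables. Full bars are members that passed the limma test, pale bars those that were 2-fold apart without passing, and dotted lines the shares of all 7054 genes, 3.84% lower and 2.42% higher. The male-biased list reaches farthest to the right, and the H2, Kupffer cell and interferon lists have bars on the left alone.

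For genes of plasma proteins, the shares of all genes tested to compare with are 2.42% higher and 3.84% lower. Among 29 complement genes, 3 were higher and passed (Susd4, C1rb and C6), and 4 were 2-fold lower, of which 3 passed (Cd59a, Cfhr2 and C8a). C1rb, a copy of the C1r protease gene, was listed at 0 in both B6 livers and stood at 32.1 and 30.4 FPKM in MSM. It is 97.9% identical to C1ra with 1 stretch of 757 identical bases, and the 2 genes summed to 102 and 96.8 FPKM in B6 and to 116 and 127 FPKM in MSM. The sum thus differed by less than 2-fold in each table. Of 24 coagulation genes, 1 was 2-fold apart, which is not far from the share of all genes. It was Kng2, which was lower and passed, at 181 and 222 FPKM in B6 and at 1.56 and 0.857 FPKM in MSM. Its relative Kng1, a precursor gene of bradykinin like Kng2, was at 1389 and 1474 FPKM in B6 and at 751 and 929 FPKM in MSM and did not pass.

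Acute-phase and iron genes were mostly less than 2-fold apart in 1 table or both. Of 26 acute-phase and metallothionein genes, Hamp and Orm1 were lower and passed, and 1 (Orm3) was 2-fold higher without passing. Hamp, the gene of the iron hormone hepcidin, was at 1664 and 2647 FPKM in B6 and at 398 and 285 FPKM in MSM (-2.64 ± 0.31). Orm1, an orosomucoid gene, was at 836 and 904 FPKM in B6 and at 144 and 178 FPKM in MSM. Of 15 apolipoprotein genes, Apoc2, the cofactor of lipoprotein lipase, was higher and passed (230 and 236 FPKM in B6, 554 and 852 FPKM in MSM). The gene 1100001G20Rik, which RefSeq names Wfdc21, was picked out after its values were seen: it stood at 1276 and 1382 FPKM in B6 and was listed at 0 in both MSM livers.

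Lipid genes of the PPAR-alpha program, the response of hepatocytes to fatty acids, held members apart in both directions. Of 26 tested, 3 were lower and 1 was higher, against 3.84% and 2.42% of all genes tested. All 4 passed, against 2.74% of all genes tested, and the median difference was -0.01. The lower members were Cyp4a14, Acot3 and Vnn1, a pantetheinase gene at 42.3 and 12.3 FPKM in B6 and at 2.35 and 0.862 FPKM in MSM. The higher member was Acot1, at 18.4 and 6.97 FPKM in B6 and at 57.9 and 30.0 FPKM in MSM. Acot1 and Acot3 are 82.5% identical, and their sum of 72.6 and 82.5 FPKM in B6 stood against 57.9 and 30.0 FPKM in MSM, so the sum was lower in MSM. With strain alone in the fit, the limma adjusted p of Acot1 was 0.27. In fatty acid synthesis, Scd1, the stearoyl-CoA desaturase gene, was at 1911 and 1139 FPKM in B6 and at 655 and 298 FPKM in MSM and passed (limma adjusted p = 0.0248). Cholesterol synthesis genes had a median difference of 1.21 without treatment and of -0.18 after injection, and none of 25 passed.

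Further single genes were far apart. Cdhr2, a protocadherin gene of the brush border, was listed at 0 in both B6 livers and stood at 13.2 and 13.6 FPKM in MSM without passing (limma adjusted p = 0.061). Scgb1c1, a secretoglobin gene, was listed at 0 in B6 as well and stood at 14.8 and 16.3 FPKM in MSM. Nnt, which encodes the mitochondrial transhydrogenase and is partly deleted in the C57BL/6J substrain (the labels name C57BL/6 alone), was at 15.4 and 17.7 FPKM in B6 and at 58.4 and 54.5 FPKM in MSM. Enho, the gene of the metabolic peptide adropin, was at 31.5 and 31.9 FPKM in B6 and listed at 0 in both MSM livers. Adora1, an adenosine receptor gene, was at 1.15 and 1.52 FPKM in B6 and at 17.1 and 23.9 FPKM in MSM. Nt5e, which encodes the ectoenzyme that makes adenosine, was at 40.4 and 25.2 FPKM in B6 and at 1.37 and 1.32 FPKM in MSM. Scgb1c1 and these last 4 genes passed.

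Ceacam1 and Ceacam2, which encode adhesion molecules of the carcinoembryonic antigen family and share 1 locus in the tables (chromosome 7, 25379527 to 25566417), were apart in opposite directions. Ceacam1, the receptor of mouse hepatitis virus, was at 57.6 and 52.6 FPKM in B6 and at 5.30 and 5.16 FPKM in MSM (limma adjusted p = 0.00706). Ceacam2 was listed at 0 and at 0.366 FPKM in B6 and stood at 13.3 and 20.01 FPKM in MSM (limma adjusted p = 0.0354). Their coding sequences are 90.5% identical, and the part in which they differ most, bases 190 to 309, is shown, where 32 of 120 bases differ (capitals).
Ceacam1: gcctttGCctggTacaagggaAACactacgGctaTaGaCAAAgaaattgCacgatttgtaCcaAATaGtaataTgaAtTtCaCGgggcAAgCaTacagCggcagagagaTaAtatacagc
Ceacam2: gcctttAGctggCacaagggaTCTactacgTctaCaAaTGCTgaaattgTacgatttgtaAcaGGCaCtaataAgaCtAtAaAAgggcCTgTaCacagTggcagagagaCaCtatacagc
The pair summed to 57.6 and 52.9 FPKM in B6 and to 18.6 and 25.2 FPKM in MSM, at least 2-fold lower in both tables. MSM reads were aligned to mm10, which is built from C57BL/6, and what part that has in values such as these was not tested.

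The H2 genes of the major histocompatibility complex, which present antigen to T cells, were lower in MSM or did not differ 2-fold. Of 12 members tested, 8 were at least 2-fold lower in both tables, 5 of them passed, and the median difference was -1.64. The class I gene H2-K1 (chromosome 17, 33996012 to 34000333) was at 791 and 695 FPKM in B6 and at 3.20 and 0.440 FPKM in MSM (-8.24 ± 0.37, limma adjusted p = 0.00175). H2-D1, the other classical class I gene of the reference, was at 260 and 237 FPKM in B6 and at 111 and 90.4 FPKM in MSM and missed the threshold (limma adjusted p = 0.0515). The 2 coding sequences are 88.6% identical. Their sum of 1051 and 933 FPKM in B6 stood against 115 and 90.8 FPKM in MSM. The sum was thus lower in MSM as well, but by less than H2-K1 alone. MSM reads were aligned to mm10, which is built from C57BL/6. What part that has in the H2 values here and below was not tested. The class II genes H2-Aa, H2-Ab1 and H2-Eb1 lie next to each other and were each 2-fold lower in both tables, and H2-Aa passed. Outside the H2 genes, 3 of 17 antigen processing genes were 2-fold lower and 2 passed, the cathepsin gene Ctss and the lipid-presenting Cd1d1.

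Interferon-stimulated genes, which cells switch on in response to viruses, were lower in 9 of 17 members by at least 2-fold in both tables, but 1 of them passed. It was Rtp4, at 16.9 and 12.2 FPKM in B6 and at 2.53 and 0.928 FPKM in MSM (limma adjusted p = 0.0457). Ifit3 was at 17.6 and 8.35 FPKM in B6 and listed at 0 in both MSM livers, and the transcription factor gene Irf7 was at 12.9 and 13.6 FPKM against 0.370 and 2.04 FPKM. The strains did not overlap for Ifit3 and Irf7, and neither gene passed. Of 9 interferon-inducible GTPase genes, 4 were 2-fold lower and 1 passed (Gbp7).

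Kupffer cells, the resident macrophages of the liver, had lower marker levels in MSM. Of 15 markers tested of 22 matched, 8 were at least 2-fold lower in both tables, 6 of them passed, none was higher, and the median difference was -1.50. Clec4f, a lectin gene confined to Kupffer cells in mice, was at 60.6 and 35.9 FPKM in B6 and at 13.4 and 11.6 FPKM in MSM (-1.83 ± 0.25, limma adjusted p = 0.0375). Csf1r, the growth factor receptor of macrophages, was at 25.4 and 16.2 FPKM in B6 and at 3.46 and 2.77 FPKM in MSM, and the lysozyme gene Lyz2 at 84.7 and 42.3 FPKM against 8.79 and 5.95 FPKM. Vsig4, Cd5l and Ctss were the other genes that passed. None of the 6 passed in every other setting: the largest limma adjusted p was 0.05 for Csf1r, 0.0508 for Lyz2, 0.0941 for Clec4f, 0.246 for Cd5l, 0.272 for Vsig4 and 0.288 for Ctss, each with strain alone. The 22 markers summed to 700 and 346 FPKM in B6 and to 166 and 143 FPKM in MSM. In bulk RNA, fewer cells of a type and less RNA per cell cannot be told apart.

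The complement C1q genes C1qa, C1qb and C1qc, which macrophages also make, were 2-fold lower in the untreated MSM liver alone. Of 14 sinusoidal and endothelial markers, 3 were 2-fold lower and 1 passed (Clec4g, at 69.0 and 47.3 FPKM in B6 and at 25.7 and 14.2 FPKM in MSM). No B cell, T cell, NK cell or exocrine pancreas marker reached a mean of 5 FPKM. The 15 T cell and thymocyte markers summed to 49.97 FPKM in the untreated B6 liver, which also held the histone transcripts described above, and to between 6.48 and 10.8 FPKM in the other livers. With 2.85% of the untreated B6 thymus values taken out of that library, 72 genes were higher and 120 lower by the limma test, and 191 of the 193 original calls were still made. The part of immune cells other than Kupffer cells in the H2 and interferon values was not tested.

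**Figure D5:**
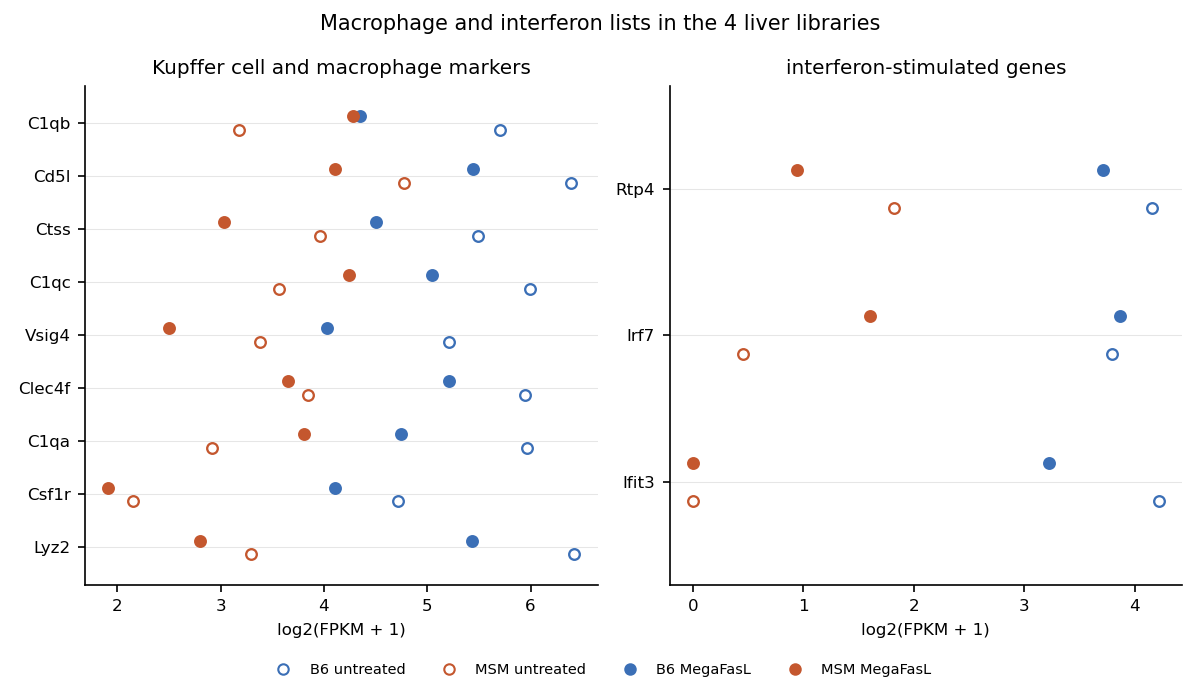
Level of the Kupffer cell and macrophage markers (left, 9 of 15 tested) and interferon-stimulated genes (right, 3 of 17 tested) that the text names in the 4 liver libraries, as log2(FPKM + 1), with strains and treatments marked as in the plot of sex-biased genes. Both MSM points of Csf1r, Clec4f, Lyz2, Irf7 and Rtp4 lie to the left of both B6 points, while C1qb after injection stood at 19.4 FPKM in B6 and 18.5 FPKM in MSM.

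The receptor that MegaFasL binds was itself lower in MSM. Fas was at 31.2 and 12.6 FPKM in B6 and at 7.20 and 2.97 FPKM in MSM (-1.87 ± 0.26, limma adjusted p = 0.037), and the strains did not overlap. The limma adjusted p of Fas was 0.0584 with genes of at least 1 FPKM tested, 0.053 without a minimum, 0.0611 with 5 added to FPKM, 0.0561 without the mean trend and 0.27 without the treatment block. With 1 liver left out and no block, it lay between 0.368 and 0.714. Of 19 members tested of the Fas apoptosis list, 3 were 2-fold lower in both tables and 1, Fas, passed. The other 2 were Casp8, the initiator caspase that Fas activates (13.8 and 12.6 FPKM in B6, 6.31 and 2.67 FPKM in MSM), and Bid, which links it to mitochondria (7.57 and 9.21 FPKM in B6, 3.08 and 2.64 FPKM in MSM). The anti-apoptotic Bcl2l1 was 2-fold higher in MSM after injection alone.

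Several groups that define hepatocyte function held no member that was 2-fold apart in both tables. These were the 25 tested urea cycle and amino acid genes (median 0.28), 16 nuclear receptors (median 0.02), 15 clock genes (median 0.12), 13 serpin A inhibitors (median 0.08), and the pericentral and periportal zonation genes (9 and 12 members). Of all tested genes, 2.42% were 2-fold higher and 3.84% lower in both tables. Lists this short would therefore hold few such genes or none. The ribosomal and respiratory chain lists held 2 of 81 and 1 of 72 members 2-fold lower, which is also not far from that share. The members that passed there were Rpl26, at 142 and 40.5 FPKM in B6 but at 0 and 0.00535 FPKM in MSM liver, and Ndufs5, at 42.6 and 45.4 FPKM against 0.00194 and 0.00745 FPKM. The globin gene Hbb-b1 showed the same, at 67.5 and 37.3 FPKM in B6 and at 0.00703 and 0.00619 FPKM in MSM. Its relative Hbb-b2 went the other way, from a listing at 0 and 11.7 FPKM in B6 to 2.83 and 28.1 FPKM in MSM. The pair summed to 67.5 and 49.0 FPKM in B6 and to 2.83 and 28.1 FPKM in MSM. After injection the sum was thus less than 2-fold apart. Rpl26 and Ndufs5 are needed in every cell, and Rpl26 stood at 60.7 and 21.9 FPKM in MSM thymus. Whether values near 0 in MSM liver are failed estimates was not tested. The listing of any gene at 0 therefore need not mean that its transcript is absent. In all, 23 genes of at least 5 FPKM in both B6 livers were listed at 0 in both MSM livers, and 17 the other way round.

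Small noncoding RNA genes were also apart. Rpph1, the RNA subunit of ribonuclease P, was at 6132 and 7921 FPKM in B6 and at 729 and 675 FPKM in MSM, and the related Rprl3 was listed at 0 in both B6 livers and stood at 238 and 312 FPKM in MSM (limma adjusted p = 0.00395 and 0.000689). The 2 transcripts are 77.2% identical, and their sum of 6132 and 7921 FPKM in B6 stood against 967 and 987 FPKM in MSM. The small nucleolar RNA gene Snord49b, picked out after its values were seen, was listed at 0 in both B6 livers and stood at 1713 and 3772 FPKM in MSM. Short genes of this kind are poorly measured in libraries of polyadenylated RNA.

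Genes with a strain difference tended to lie side by side. Of the 442 genes that were 2-fold apart in both tables, 108 (24.4%) had an adjacent tested gene that was 2-fold apart as well, against 724 of the other 6612 (10.9%). Runs of at least 3 such neighbours numbered 10. They held the Mup cluster (7 genes, 3 higher and 4 lower), the Cyp2c cluster (5 genes), the Gstm cluster (4), the Cyp4a12a, Cyp4a12b and Cyp4a14 genes, the Hsd3b2, Hsd3b3 and Hao2 genes, the class II H2 genes, the Cd1d2, Cd1d1 and Cd5l genes, the Me1, Cyb5r4 and Nt5e genes, and 2 runs at the Ugt1a locus. Of the 10 runs, 7 held genes of both directions. Genes were ordered by their deposited locus, and 613 tested genes share a locus with another, such as Mup11 and Gm2083. These count as neighbours, and their part in the shares and runs was not tested.

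The thymus libraries of the same strains and treatments served to ask where else these differences were seen. Of the 442 genes, 190 had a mean of at least 5 FPKM in thymus, and 35 of them (18.4%) were 2-fold apart in the same direction in both thymus tables, 13 higher and 22 lower. Among all 5097 genes at that level in both tissues, 2.51% were 2-fold apart in 1 direction in both thymus tables. H2-K1 was among the 35, at 163 and 156 FPKM in B6 thymus and at 19.1 and 0.667 FPKM in MSM thymus. The 19.1 FPKM lies in the untreated MSM thymus, and H2-K1 was at 791 FPKM in the untreated B6 liver. Rpph1, Rprl3, Lyz2, Gbp7 and the class II H2 genes were among the 35 as well. The 35 also held Cyp3a11, at 61.2 FPKM in the untreated MSM thymus, where other liver transcripts were found, and at 13.7 FPKM in the injected one, and the histone genes Hist1h4f and Hist1h4m, which are among the 8 above. The part of such RNA in the overlap was not tested. The other 252 of the 442 genes, among them Cyp2b9, Cyp2d9 and Sult3a1, were under 5 FPKM in thymus and could not be compared.

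Whether the strain difference was of another size in liver than in thymus was tested with limma on the ratio of the 2 tissues. It passed for 73 of 5097 genes (1.43%), 26 with a higher and 47 with a lower difference in liver. With strain alone in the fit, 12 passed. Leaving out 1 strain and treatment, again with strain alone, left 29 of the 73 calls without untreated B6, 5 without untreated MSM, 36 without injected B6 and 20 without injected MSM. Among the calls without untreated MSM, Mup3 and 1100001G20Rik reached the thymus minimum only through the library left out. H2-T9, a nonclassical class I gene, differed by -4.47, and by -5.28 without the untreated MSM pair. It was lower in MSM liver (69.9 and 48.1 FPKM in B6, 15.3 and 2.97 FPKM in MSM) and higher in MSM thymus (7.56 and 8.03 FPKM in B6, 29.8 and 22.0 FPKM in MSM).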

How the data were processed

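RNA sequencing of polyadenylated RNA from liver was compared between strains. According to the submitters' processing notes, TopHat, Cuffdiff 2.2.1 and mm10 were used. The authors deposited gene FPKM with the lower and upper bounds of its confidence interval, also in FPKM, in 1 table for untreated and 1 for injected mice. For annotation and run settings the sources used here say nothing. The number of mice per library, and whether liver and thymus came from 1 mouse, were not stated. Loci were written with starts counted from 1: 7169 genes then matched RefSeq GRCm38.p6.

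Differences were taken on log2(FPKM + 1), which shrinks those of low genes. Genes that averaged at least 5 FPKM in the livers were fitted with limma 3.58.1 (R 4.3.3, mean trend, strain with treatment as a block, two-sided, Benjamini-Hochberg adjusted p under 0.05). The liver minus thymus values were fitted alike. The code was tested on simulated data. Depth was read back from the FPKM steps, of which 76.1% to 78.9% came out whole within 0.1 against 20.0% by chance; it covers counting error only. Coding sequences came from GENCODE M21 and were aligned end to end.

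The genes and the 58 lists (742 of 753 listed symbols matched, plus 19 lists taken by name prefix) were chosen with earlier results of these data known. Prefix lists were corrected, after values were seen, to leave out genes of other families. Named genes were the 15 largest differences each way (predicted, unnamed and small nucleolar RNA genes left out), up to 8 members per list, Fas apoptosis members, neighbour runs, and the 8 largest each way in the comparison with thymus. Genes outside these, and those shown for comparison within a pair or list, were named after their values were seen. Some genes are not reported here.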

Additional observations from a re-analysis of the deposited data

Results flagged for a closer look

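For a set of genes the strain difference was not the same in liver and thymus, by the limma test of the ratio of the tissues (adjusted p under 0.05). The differences, in liver minus in thymus, were -10.49 for Mup3, -7.13 for Rpl26, -4.48 for Ifitm2, -4.47 for H2-T9, -4.39 for Gsto1, -4.02 for Snhg6, -3.91 for Pmvk and -3.88 for Camk1d. On the other side they were 5.15 for Hist1h2bm, 3.41 for Hist1h4m, 2.60 for Etohi1, 2.59 for Egr1, 2.50 for Plcxd2, 2.49 for Slc35c2, 2.14 for Pfdn2 and 2.14 for Aprt. Mup3 reached the thymus minimum through the untreated MSM thymus alone (106 FPKM, against 0 to 0.909 FPKM in the other thymi), which held other liver transcripts as well, so its value describes that library; without that pair it was -7.89. Hist1h2bm and Hist1h4m are among the 8 histone genes that were high in the untreated B6 liver (20.4 and 24.0 FPKM), and Hist1h2bm differed by -2.34 without treatment and by 3.02 after injection in liver. Without the untreated MSM pair, with strain alone in the fit, the value was -6.41 for Rpl26, -4.88 for Ifitm2 and -5.28 for H2-T9. It was -3.89 for Gsto1, -5.77 for Snhg6, -4.37 for Pmvk and -3.80 for Camk1d. On the other side it was 4.58 for Hist1h2bm, 2.38 for Hist1h4m, 2.89 for Etohi1 and 3.47 for Egr1. It was 3.18 for Plcxd2, 2.39 for Slc35c2, 1.87 for Pfdn2 and 2.26 for Aprt. A single MSM pair was left in that fit. Mup3 stayed in that fit only through the library left out, so its -7.89 does not compare tissues that both express it. The value of Rpl26 rests on MSM livers listed at or near 0. Ifitm2, a virus-restriction gene, was less than 2-fold apart in liver and higher in MSM thymus by 4.30 without treatment and by 5.13 after injection. Gsto1, a glutathione S-transferase gene, was lower in MSM liver (118 and 112 FPKM in B6, 23.5 and 33.8 FPKM in MSM) and higher in MSM thymus (6.05 and 6.18 FPKM in B6, 43.6 and 30.8 FPKM in MSM).
Among other genes named above, it was -3.45 for H2-K1, -2.23 for Bid, -2.22 for Csf1r and 2.06 for Bcl6, and these 4 did not pass without that pair.

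Liver transcripts appeared in the untreated MSM thymus with the pattern of B6 liver. The 10 genes that were high in B6 liver, low in MSM liver and nearly absent from the other 3 thymi stood there at 1.12% to 5.11% of the untreated B6 liver level, with a median of 2.68%. Cyp2b9, for example, was at 12.1 FPKM in that thymus, 435 FPKM in the untreated B6 liver and 0.690 FPKM in the untreated MSM liver. The 5 genes high in MSM liver, such as Akr1c18 and Cyp4a12b, stood there at 0% to 0.210% of the untreated MSM liver level. Where these transcripts came from was not tested. In the other direction, the 8 histone genes in the untreated B6 liver had a median of 2.85% of the untreated B6 thymus level.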

How the results depend on the processing

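The 193 genes that passed kept their direction under every alternative in which they were tested. With another minimum or another form of the fit to the same livers, each difference stays as it is, so direction could not change there. All 193 were at least 2-fold apart in both tables, which left little room for a change elsewhere. By limma, 32 genes were higher and 57 lower in MSM with a minimum of 20 FPKM, 186 were lower with TPM, 38 were higher without the mean trend, and 45 were higher and 70 lower with strain alone in the fit. Leaving out 1 liver at a time, which also drops the treatment block and is to be read against those 45 and 70, gave 5 to 23 higher and 19 to 33 lower, with 6 and 33 (without untreated B6), 23 and 23 (untreated MSM), 5 and 29 (injected B6), and 18 and 19 (injected MSM). The lone remaining liver of that strain is then assumed to vary like the others. Genes 2-fold apart in both tables numbered 111 higher and 178 lower with 5 added to FPKM, 292 and 485 with a minimum of 1 FPKM, 86 and 119 with 20 FPKM, 319 and 518 without a minimum, 431 and 555 at 1.5-fold, and 49 and 98 at 4-fold. For liver against thymus, 68 genes were higher and 93 lower with a minimum of 1 FPKM, 9 and 21 with 0.1 added, 15 and 29 with 5 added, 43 and 79 with TPM, and 2 and 10 with strain alone, chosen after seeing the data. Leaving out 1 strain and treatment, also with strain alone, gave 0 to 15 higher and 6 to 86 lower. The cause was not tested. No named gene that passed changed direction in any of these settings, with the same limit as for the 193. The thymus share removed from the untreated B6 liver was likewise chosen after seeing the data. No replicate within a strain and treatment, family members that share reads, and 613 tested genes that share a locus with another limit these values. The reported fit pairs the strains by treatment, and strain alone is the fit without that block. At 5 FPKM on 2 kb, about 16 fragments set the counting error.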

Other observations

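Immediate-early genes, which many stimuli switch on within minutes, were higher in MSM in the 2 of 8 tested members that were at least 2-fold apart in both tables, and 1 of them passed. Egr1 was at 0.424 and 4.26 FPKM in B6 and at 6.04 and 40.1 FPKM in MSM (limma adjusted p = 0.0418), while Maff was listed at 0 and at 4.17 FPKM in B6 and stood at 1.45 and 15.5 FPKM in MSM without passing. Of 25 genes of glucose production and insulin response, the tyrosine aminotransferase gene Tat, which glucocorticoids induce, was 2-fold higher in both tables (457 and 835 FPKM in B6, 933 and 2924 FPKM in MSM) at a limma adjusted p of 0.0665. The labels do not describe how the mice of each strain were handled, and its part in these values was not tested.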
